A study of Mus musculus with 8 samples.

Results

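The cells described here are γδ T cells of mouse skin wounds, chosen by their receptor transcripts. A cell was a member when it held at least 3 UMIs (unique molecular identifiers, each counting 1 captured transcript) of Trdc plus Tcrg-C1, the constant segments of the δ and γ receptor chains, at least 1 UMI of the CD3 genes Cd3d, Cd3e and Cd3g, no UMI of the regulatory T cell factor Foxp3 and at most 1 UMI of the macrophage receptor Csf1r. The rule found 522 members among 35158 kept cells of 8 libraries. Kept cells had more than 200 nuclear genes and less than 20% mitochondrial UMIs, which held for 35158 of 38959 barcodes. CD45+ cells, the leukocytes, were sorted from wounds on the backs of male C57BL/6J mice on days 1, 3, 5 and 7, and each library pooled 5 mice of 1 group and day. Diabetic mice had received streptozotocin, a toxin of insulin-making β cells, at 120 mg/kg at 4 weeks of age. Control mice were wild-type animals of the same strain wounded in the same way. Streptozotocin diabetes models loss of insulin and not the insulin resistance of type 2 diabetes. With 1 library per group and day, the 4 days were the only repeats of a comparison between groups, and the spread between mice within a pool was not measured.

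γδ T cells carry a receptor of a γ and a δ chain in place of the α and β chains of conventional T cells. In mouse skin they fall into dendritic epidermal T cells, which sit among keratinocytes, and dermal cells that leave the thymus already committed to making interleukin-17. IL-17A and IL-17F act on keratinocytes and stromal cells, which then draw in neutrophils. IL-23 and IL-1, through the receptors Il23r and Il1r1, trigger their release.

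Il17a and Il17f are neighbours on chromosome 1 and point towards each other, with RefSeq start sites 53.4 kb apart (GRCm38.p6). Their promoters are shown because these cytokines name the population and because AGGTCA is a half-site known for the nuclear receptor family. The stretches below run from 250 bases before the start site to 50 bases after it, 5′ to 3′ on the strand of the gene, at chr1:20730655-20730954 on the plus strand for Il17a and chr1:20784221-20784520 on the minus strand for Il17f. Capitals mark each occurrence of AGGTCA, or of TGACCT, its reverse complement.
Il17a: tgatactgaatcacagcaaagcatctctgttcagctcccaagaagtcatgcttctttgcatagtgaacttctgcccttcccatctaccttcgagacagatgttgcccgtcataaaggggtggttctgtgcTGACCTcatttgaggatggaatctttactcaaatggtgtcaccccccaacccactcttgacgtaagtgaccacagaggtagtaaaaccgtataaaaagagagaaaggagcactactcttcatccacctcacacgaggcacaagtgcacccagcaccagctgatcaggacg
Il17f: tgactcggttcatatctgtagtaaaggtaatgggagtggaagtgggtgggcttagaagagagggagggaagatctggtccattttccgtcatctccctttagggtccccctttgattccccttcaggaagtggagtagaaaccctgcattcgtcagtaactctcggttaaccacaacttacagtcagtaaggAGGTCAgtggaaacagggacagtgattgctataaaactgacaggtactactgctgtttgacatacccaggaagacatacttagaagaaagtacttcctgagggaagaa
Each promoter held 1 match, beginning 120 bases before the start of Il17a, on the opposite strand, and 58 bases before the start of Il17f. The half-site was found on either strand in 16.3% of 32851 promoters of the same length, so a match is a description of these letters and not evidence of a bound site.

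The receptor UMIs that chose the members ranged from 3 to 142 per cell, with a median of 10. Trdc was seen in 95.8% of members. Of the genes that the rule did not use, Cd163l1, a scavenger receptor known from IL-17-making γδ T cells, had a UMI in 53.3% of members, and Cxcr6, a chemokine receptor of tissue T cells, in 66.7%. Il17a had a UMI in 237 members (45.4%) and Il17f in 198 (37.9%). Together, 295 members (56.5%, exact 95% binomial interval 52.1 to 60.8%, counting error only) carried Il17a or Il17f, and 140 carried both. The label of IL-17-making cells thus held for those 295 members at a median depth of 3682 UMIs per cell, and an IL-17 transcript was not detected in the others. Thinned to 1000 UMIs per cell, 224 of 517 members (43.3%) carried either cytokine.

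Values on either side of the rule's threshold are given as a description. Among T cells with 2 receptor UMIs, 16 of 41 (39.0%) carried Il17a or Il17f and 39.0% carried Trac, the αβ receptor constant segment. Among members with 3 receptor UMIs, 32 of 54 (59.3%) carried Il17a or Il17f and 37.0% carried Trac. Over all members, 165 (31.6%) had a Trac UMI, against 87.9% of αβ T cells and 2.34% of neutrophils and 10.8% of macrophage-like cells. The part of other cells' RNA in this was not tested, and no doublet caller was run. Neutrophil RNA was widespread, with S100a8 in 81.8% of members and 79.3% of αβ T cells. The natural killer receptor gene Ncr1 had 0 UMIs in members, which allows up to 0.704% of cells with a UMI.

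Members made up a small share of the sorted leukocytes, larger on day 7 than on day 1 in both groups, with diabetic day 5 above the other libraries. The share was 0.715%, 1.14%, 4.14% and 1.97% of kept cells in diabetic wounds on days 1, 3, 5 and 7. In control wounds it was 0.521%, 0.916%, 0.765% and 1.91%. The diabetic library was higher on 4 of 4 days by a mean of 0.963 percentage points (SD 1.61 over days), with p = 0.13 in the exact two-sided sign-flip permutation test, the smallest p that 4 pairs allow. Without day 5, where the exact intervals were 3.55 to 4.78% and 0.496 to 1.13%, the mean difference was 0.160 points. Control day 5 also stood apart in other ways, with 28.6% of its barcodes removed by the filter and a median of 8234 UMIs per kept cell, against 2575 to 5219 in the other libraries. Relative to T cells alone, defined as cells with a CD3 UMI and at most 1 Csf1r UMI, the picture differed. Members were 26.0%, 37.6%, 32.3% and 13.4% of T cells in diabetic wounds and 18.5%, 16.9%, 27.2% and 26.7% in control wounds. That share was higher in diabetic wounds on 3 of 4 days and lower on day 7. At 5 receptor UMIs or more, and after thinning every cell to 1000 UMIs, the diabetic share of kept cells was higher on 2 of 4 days. Counting every kept cell with 3 receptor UMIs, with no condition on CD3, Foxp3 or Csf1r, the shares were 1.07%, 1.56%, 5.24% and 3.02% in diabetic and 0.816%, 1.35%, 1.62% and 4.47% in control libraries. On that count, made after the data were seen, the direction turned on day 7 (-1.45 points), and the mean difference was 0.657 points (exact sign-flip permutation p = 0.625).

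**Figure D1:**
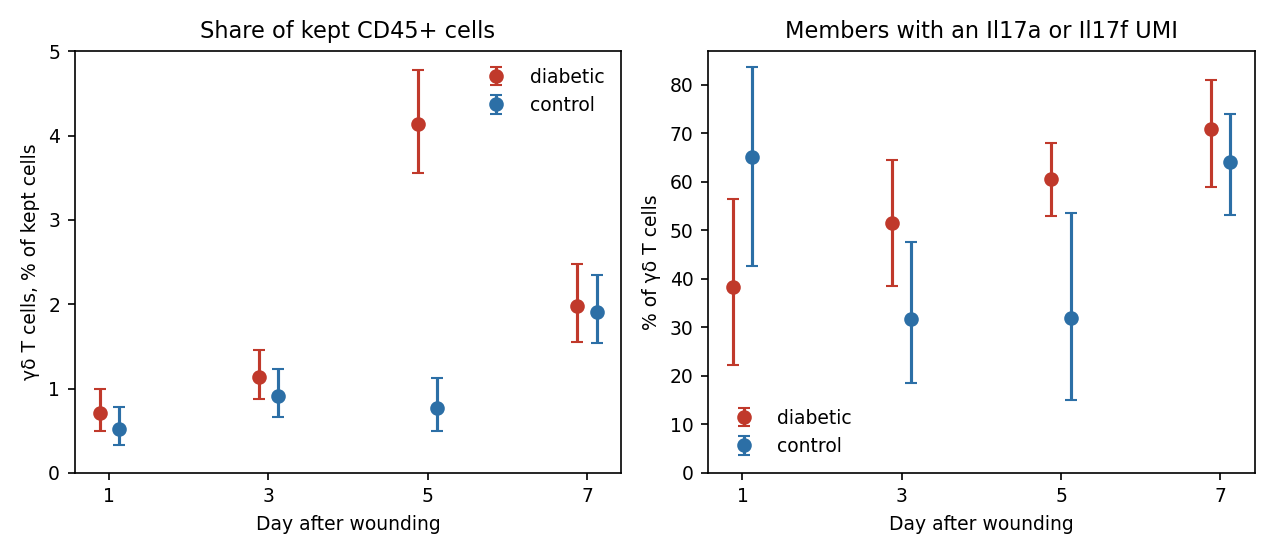
Left, γδ T cells as a percentage of kept CD45+ cells by day, 1 point per library; right, the percentage of γδ T cells with at least 1 Il17a or Il17f UMI. Bars are exact 95% binomial intervals for counting error; diabetic day 5 (4.14%) lies above the other 7 libraries on the left, and the order of the groups on the right is reversed on day 1.

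The members, few as they were, held more of the Il17a and Il17f in the wounds than any other T cell class examined. Of 3402 Il17a UMIs in kept cells, 1612 (47.4%) fell in the 522 members, 5.56% in 686 conventional αβ T cells and 0.617% in regulatory T cells. Of 3292 Il17f UMIs, 58.7% fell in members and 5.38% in αβ T cells. Cells outside the T cell definition above held 40.7% of Il17a and 27.2% of Il17f UMIs. For Il17a that share ranged from 15.4% in diabetic day 5 to 62.9% in control day 5. The member share of Il17a ranged from 26.6% in control day 7 to 76.0% in diabetic day 5. A further 305 cells reached 3 receptor UMIs but failed the rule, 107 of them for want of a CD3 UMI and 232 for more than 1 Csf1r UMI, with some failing both. These cells held 20.3% of Il17a and 18.0% of Il17f UMIs, so part of the cytokine outside the members lay in barcodes with γδ receptor transcripts. They were unevenly spread, with 119 in control day 7, where 102 exceeded the Csf1r limit, and 13 to 46 in each other library. In control day 7 they held 469 Il17a and 329 Il17f UMIs, more than the 308 and 292 in that library's 89 members. Il22, a related cytokine that acts on epithelium, was distributed otherwise, with 15.0% of its 894 UMIs in members and 37.7% in αβ T cells. Diabetic day 7 held 394 of these UMIs, and the order varied, with 2.47 to 66.7% of a library's Il22 in members and 0 to 79.0% in αβ T cells. Members held more than αβ T cells in diabetic day 3 and control day 5, and the classes held 12 UMIs each in diabetic day 1. As background, an Il17a UMI was seen in 0.361% of neutrophils (median 2544 UMIs) and 1.92% of macrophage-like cells with at least 3 Csf1r UMIs (median 8311 UMIs).

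Cytokine levels in members varied several-fold between libraries. In CPM, UMIs of a gene scaled to a fixed total of UMIs in the members of a library, Il17a stood at 365, 732, 739.8 and 1341 in diabetic libraries of days 1, 3, 5 and 7, and at 777, 386, 206 and 948 in control libraries. Il17f stood at 1069, 1253, 923 and 1176 in diabetic libraries, and at 1009.6, 41.5, 843 and 899 in control libraries. Il17f lay between 843 and 1253 in 7 of the 8 libraries, and control day 3, with 7 UMIs in 44 members, lay far below. The groups overlapped for both genes. In small libraries single cells weighed heavily, and 1 member held 74 of the 123 Il17f UMIs of diabetic day 1. Within control day 3, Il17a was still present at 65 UMIs in 12 members.

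The question of what sets these cells apart from other T cells was addressed against conventional αβ T cells of the same library, defined by at least 2 UMIs of Trac, Trbc1 and Trbc2 and none of Trdc, Tcrg-C1 or Foxp3. UMIs were summed per library and class and tested with edgeR's quasi-likelihood test with the library as a block, n = 8 libraries. Of 5370 genes, 528 (9.83%) were higher and 352 (6.55%) lower in members at an adjusted p below 0.05. The receptor genes used to choose either class were left out. Members carried the IL-17 programme of regulators and receptors, and αβ T cells carried the type 1, naive and interferon-response genes. Il17a was 3.74 ± 0.29 (log2 fold change ± SE, adjusted p = 2e-11) higher in members and Il17f 3.80 ± 0.23 higher (adjusted p = 1.1e-13), each in 8 of 8 libraries.

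Among 22 tested genes of the IL-17 lineage, 18 were higher in members and 0 lower, against 9.83% of all genes called higher, and their median log2 fold change was 1.75 against -0.03 over all genes. Sox13, a transcription factor that programmes γδ cells for IL-17 in the thymus, was 5.43 ± 0.47 higher, with 167 UMIs in members against 5. Blk, a kinase needed for IL-17-making γδ cells, was 3.99 ± 0.22 higher. Zbtb16, which encodes the innate lymphocyte factor PLZF, was 2.46 ± 0.32 higher, and Maf 0.77 ± 0.16 higher. The receptors for the cytokines that trigger IL-17 were also higher. Il23r was at 113, 219, 204 and 199 CPM in diabetic and 129, 125, 92.5 and 98.5 in control members, against 5.63 to 57.3 in αβ T cells. Il23r was 2.72 ± 0.28 and Il1r1 1.75 ± 0.22 higher, each in 8 of 8 libraries. Il18r1 (0.33 ± 0.16, adjusted p = 0.17) and Il7r (0.35 ± 0.16, adjusted p = 0.15) did not pass the test. Without control day 5, Il7r passed at 0.49 (adjusted p = 0.0079).

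Cd163l1 was at 443, 378, 864 and 1192 CPM in diabetic members and 375, 1365, 216 and 711 in control members, against 0 to 42.4 in αβ T cells. The classes did not overlap for this gene, and the fitted difference was 6.38 ± 0.30 on the log2 scale (adjusted p = 1.2e-16). Trdv4, the variable segment known as Vδ1, which dermal and epidermal γδ cells use, was at 391, 366, 581 and 322 in diabetic members and 246, 558, 1264 and 145 in control members. In αβ T cells it was between 0 and 10.6. Tcrg-C2 (2.88 ± 0.25) and Tcrg-C4 (3.13 ± 0.31) were also higher. The sequence of Tcrg-C2 is close to that of Tcrg-C1, so how reads were split between Tcrg-C1 and Tcrg-C2 is uncertain. Cxcr6 differed less, at 417, 739.9, 1132 and 950.3 in diabetic and 285, 481, 411 and 788 in control members, with αβ T cells between 172 and 529.7. It was higher in the members of 8 of 8 libraries, by 1.02 ± 0.17 (adjusted p = 2.6e-05). Ccr2, the receptor by which monocytes and some T cells enter inflamed tissue, was 1.04 ± 0.16 higher. Itgae, the integrin that holds T cells in epithelium, was 1.25 ± 0.17 higher. The lists it belongs to were mixed. Of 10 tested tissue residency genes 5 were higher and 2 lower, against 9.83% and 6.55% of all genes. The lower ones were Itga1, an integrin of collagen (-2.44 ± 0.52), and Bhlhe40 (-0.50 ± 0.15). The call of Bhlhe40 was lost without diabetic day 1, control day 1 or control day 7. Of 6 tested genes of epidermal γδ T cells, Itgae and Klrk1 were higher and Gzmb, a granzyme (-1.32 ± 0.19), lower, against the same 9.83% and 6.55%. Klrk1 lost its call at 5 receptor UMIs or more (0.48, adjusted p = 0.084).

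Several of the largest differences came from few cells. Fermt2, an integrin activator, had UMIs in 49 members (9.39%) and 1 αβ T cell, a ratio of 347 with a counting interval of 61.8 to 13782. Such intervals on UMIs, here and below, treat UMIs as independent and leave out the spread between cells. Avil, an actin-binding protein, was seen in 48 members and 3 αβ T cells, a ratio of 75.9 (25.5 to 372). Unc5b, a netrin receptor, was seen in 37 members and 3 αβ T cells (log2 fold change 4.75 ± 0.60). Tjp1, a tight junction protein, had UMIs in 30 members (4.16 ± 0.77). Abi3bp, an extracellular matrix-binding protein, was broader, with UMIs in 176 members and a log2 difference of 4.51 ± 0.30. Tpbg was seen in 82 members (4.02 ± 0.52).

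Among the secreted factors, 7 of 21 tested were higher in members and 2 lower, against 9.83% and 6.55% of all genes. Besides Il17a and Il17f these were Csf2, a myeloid growth factor (2.10 ± 0.63, 56 UMIs), Lta (1.55 ± 0.47), Ltb (1.06 ± 0.20), Tnf (0.62 ± 0.16) and Tnfsf14. Lta lost its call without diabetic day 5 (adjusted p = 0.15), diabetic day 7 (0.092), control day 3 (0.053) or control day 7 (0.075). Ifng and Ccl5 were lower. Ifng, the defining cytokine of type 1 cells, had 6 UMIs in 5 members against 393 in αβ T cells, and was at 0 in 4 of 8 member libraries. Il22 did not pass the test (-0.51 ± 0.39, adjusted p = 0.45), but was lower in members with no Trac UMI (-1.79, adjusted p = 0.0051). Beyond cytokines, Il2ra, the IL-2 receptor α chain, was 1.75 ± 0.16 higher and Cd44, an adhesion receptor of activated T cells, 1.03 ± 0.11 higher.

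The αβ side of the comparison was led by lineage genes. The log2 fold change was -4.48 ± 0.29 for Cd4, -6.12 ± 0.42 for Cd8a, -5.01 ± 0.39 for Cd8b1, and -4.00 ± 0.31 and -3.96 ± 0.36 for the surface receptors Cd5 and Cd6. Of 12 type 1 and cytotoxic genes, 9 were lower and 1 higher, against 6.55% of all genes called lower. They included Tbx21, which encodes T-bet (-3.17 ± 0.46), Gzma, a granzyme (-3.48 ± 0.35), Fasl, a death ligand (-3.79 ± 0.52), and Ccl5, a chemokine (-3.94 ± 0.26), while the activating receptor Klrk1 was 0.75 ± 0.17 higher. Cxcr3, a chemokine receptor of type 1 cells, was at -3.95 ± 0.47. The unnamed gene model Gm8369 was at -4.33 ± 0.43. Of 8 genes of circulating and naive T cells, 6 were lower, among them S1pr1, the receptor for tissue exit (-1.93 ± 0.21), and Ccr7, the lymph node homing receptor (-1.93 ± 0.35). Of 16 interferon-response genes, 10 were lower, among them Ifit1 at -2.09 ± 0.40. The costimulation list was split, 7 of 16 higher and 7 lower, with Cd28 (-3.66 ± 0.26) and Ctla4 (-3.31 ± 0.30) among the lower. None of 30 oxidative phosphorylation genes passed the test in edgeR, where the lowest adjusted p of the list was 0.052. Of 10 neutrophil marker genes fixed as a list, 7 were tested and 0 differed. Their sums were nonetheless higher in members on day 1, at 9319 CPM against 3050 in αβ T cells of the diabetic library. In control day 1 they were 5605 against 2965. On days 5 and 7 the sums were lower in members in both groups, and on day 3 the order differed between groups. Other lists did move with the comparison. All 3 tested mast cell markers, Cpa3, Tpsb2 and Mcpt4, were lower in members, and the 5 markers of that list summed to 12.9 to 151 CPM in members and 12.0 to 1926 in αβ T cells, with the highest values on day 7, 1465 in the diabetic and 1926 in the control library. Of 6 dendritic cell markers, H2-Eb1, Ccl22 and Fscn1 were lower, and Dsp, the 1 keratinocyte marker tested, was higher. Of 5 tested natural killer cell markers, Eomes (-2.23 ± 0.45), Klra8 and Gzma were lower, and the 8 markers summed to 11.9 to 1400.3 CPM in members and 244 to 3390 in αβ T cells, highest in control day 3 in both. Both tested markers of group 2 innate lymphoid cells, Gata3 and Il1rl1, were lower, at summed levels of 77.1 to 252 in members and 146 to 717 in αβ T cells. Of 12 macrophage and monocyte markers, Ly6c2, which some T cells also carry, was lower (-2.64 ± 0.18), and their sums were 932 to 7711 in members and 2002 to 8854 in αβ T cells. Several of these calls depended on the setting. DESeq2 did not call Cpa3, Tpsb2, Mcpt4, Ccl22 or Fscn1. Mcpt4 also lost its call without diabetic day 7 (-1.04, adjusted p = 0.27), Dsp without diabetic day 5 (3.21, adjusted p = 0.0503), and H2-Eb1 without diabetic day 1 or control day 5. The part of other cells' RNA in the comparison was not tested for these lists.

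**Figure D2:**
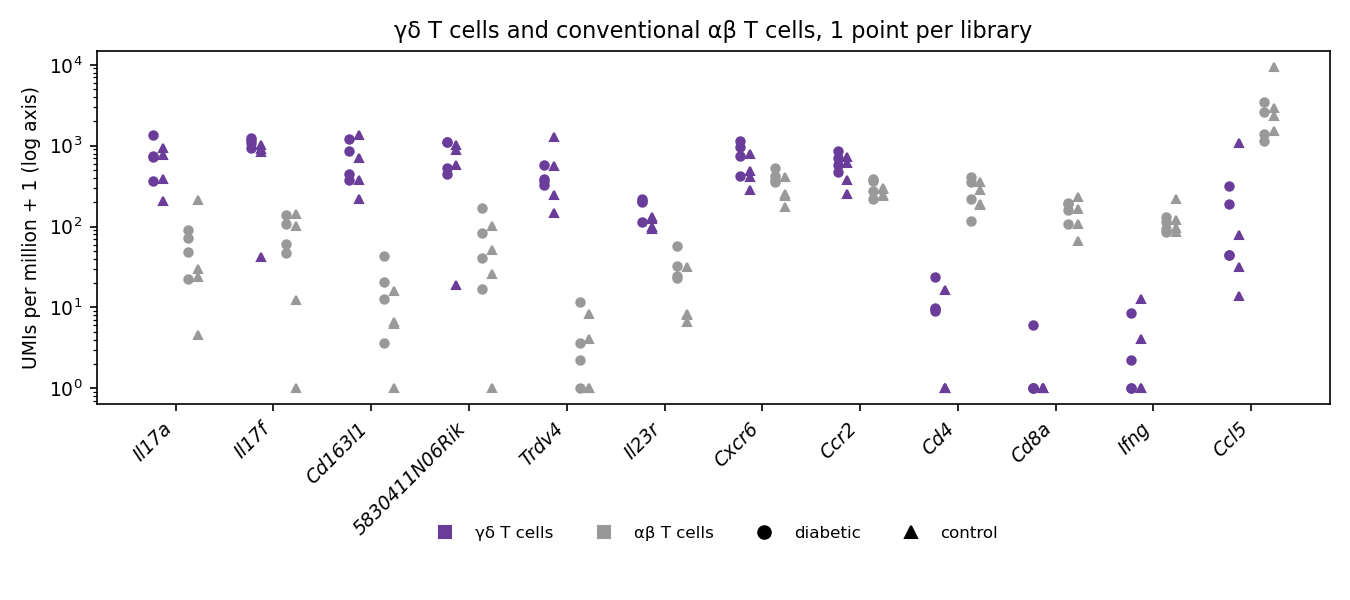
Levels of 12 genes in γδ T cells (purple) and αβ T cells (grey), in CPM plus 1 on a log axis, 1 point per library (circles diabetic, triangles control). Cd163l1, Trdv4, Cd4, Cd8a and Ifng do not overlap between the classes, while Cxcr6 and Ccr2 do.

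The members were not uniform, and they are grouped here by UMIs of a pair of related scavenger receptors. Cd163l1 encodes Scart1 and 5830411N06Rik encodes Scart2, surface proteins known from IL-17-making γδ T cells. The pair was chosen after their values were seen, so the groups are described without a test. A UMI of Cd163l1 alone was found in 197 members (37.7%), of 5830411N06Rik alone in 140 (26.8%), of both in 81 (15.5%) and of neither in 104 (19.9%), with median depths between 3546 and 3886 UMIs. At such depths a transcript can be missed, so a gene without a UMI is not shown to be absent. Whether the genes exclude each other was not tested. The variable segment Trdv4 differed between these groups when libraries were pooled. It had a UMI in 73.1% of members with Cd163l1 alone, 0.714% with 5830411N06Rik alone, 4.94% with both and 53.8% with neither. By library the share with Cd163l1 alone ranged from 35.0 to 100%, and it lay below the share with neither in diabetic day 1 (3 of 6 against 7 of 10 members) and control day 7 (7 of 20 against 9 of 19). Diabetic day 5 gave 70 of the 144 cells with Cd163l1 alone and Trdv4. With 5830411N06Rik alone at most 1 cell in any library had Trdv4. Pooled over libraries, Il17a or Il17f was found in 52.3% of members with Cd163l1 alone, 75.7% with 5830411N06Rik alone, 84.0% with both and 17.3% with neither. By library this share ranged from 0 to 75.0% with Cd163l1 alone. With both genes it lay below that with 5830411N06Rik alone in diabetic days 3 and 7 and control day 7. The values were 63.6 against 76.9%, 88.9 against 94.1% and 77.8 against 78.1%. In the other libraries with members of both kinds it lay above. Members with Cd163l1 alone carried Il17a more often than Il17f (92 and 40 cells), while members with 5830411N06Rik alone carried them about equally (79 and 88 cells).

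The mix of these groups differed between libraries. 5830411N06Rik had 128, 277, 415 and 116 UMIs in 18, 37, 67 and 26 members of the diabetic libraries, and 79, 3, 56 and 287 UMIs in 13, 1, 9 and 50 members of the control libraries. In control day 3, 36 of 44 members had Cd163l1 alone, 0 had 5830411N06Rik alone and 1 had both. This library also had the fewest Il17f UMIs, 7, and the highest Cd163l1 level, 1365 CPM. Members with 5830411N06Rik alone were 38.2%, 41.9%, 22.5% and 23.6% in diabetic libraries of days 1, 3, 5 and 7, and 39.1%, 0%, 16.0% and 36.0% in control libraries. Members with Cd163l1 alone were 17.6%, 16.1%, 46.2% and 54.2% in diabetic libraries, and 17.4%, 81.8%, 8.0% and 22.5% in control libraries. In the diabetic libraries the share with Cd163l1 alone was higher on days 5 and 7 than on days 1 and 3, and the control libraries showed no such order. Other variable segments were rarer, Trgv2 in 80 members, Tcrg-V6 in 24, Tcrg-V1 in 17, Tcrg-V5, the segment of epidermal T cells, in 16 and Tcrg-V4 in 3. Of the 16 members with Tcrg-V5, 6 were in control day 5 and 2 carried Il17a or Il17f.

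**Figure D3:**
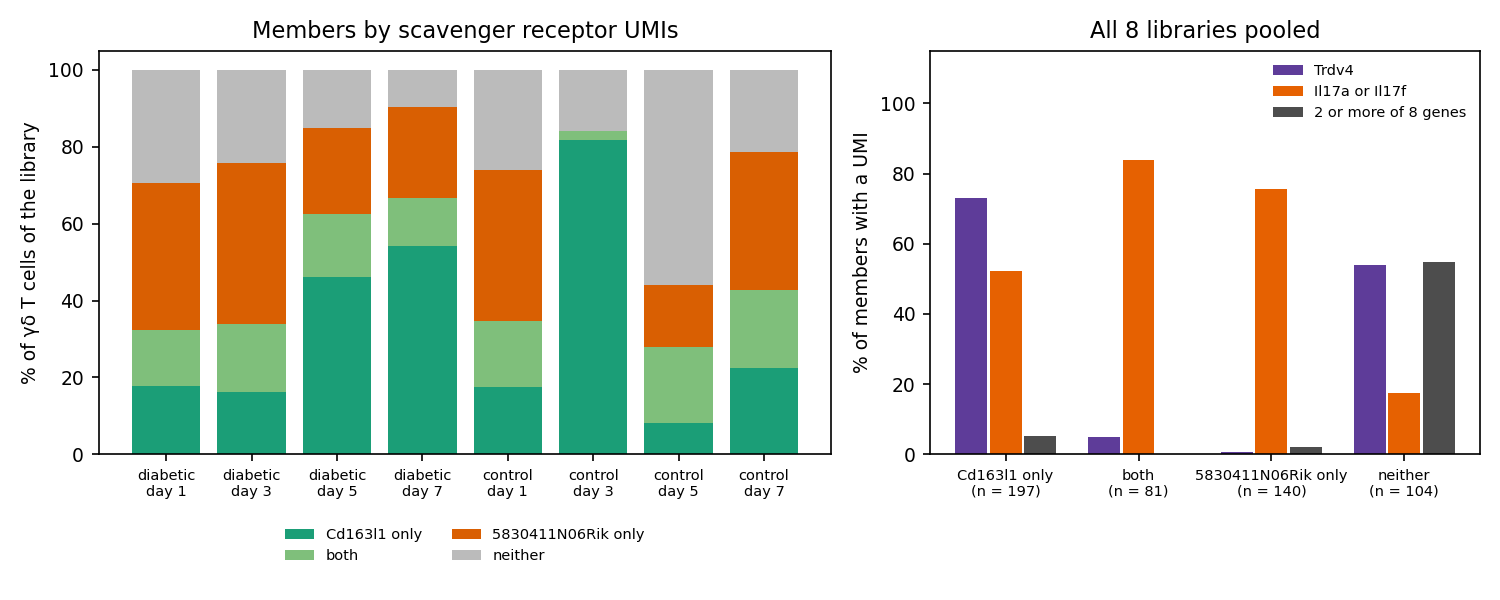
Left, members of each library split by UMIs of the scavenger receptor genes Cd163l1 and 5830411N06Rik, in percent. Right, for the same groups pooled over libraries, the percentage with a UMI of Trdv4, with a UMI of Il17a or Il17f, and with UMIs of at least 2 of 8 genes (Fermt2, Xcl1, Nkg7, Trat1, Avil, Unc5b, Adgrl2, Gzmc); Trdv4 is in 73.1% of members with Cd163l1 alone and 0.714% with 5830411N06Rik alone.

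Members with and without the cytokines were compared within the 4 libraries that had at least 20 of each, diabetic days 3, 5 and 7 and control day 7. This took 245 members with an Il17a or Il17f UMI and 151 without, at 4145 and 4038 UMIs per cell on average. With edgeR's quasi-likelihood test and the library as a block, 56 of 3783 genes (1.48%) were higher and 66 (1.74%) lower in the cells with cytokine. Of 21 tested IL-17 lineage genes, 8 were higher and 0 lower, against 1.48% of all genes. These were 5830411N06Rik (1.30 ± 0.20, adjusted p = 5.7e-05), Il1r1 (0.79 ± 0.22), Maf (0.77 ± 0.17), Ccr2 (0.77 ± 0.16), Blk (0.73 ± 0.17), Il7r (0.65 ± 0.13), Cxcr6 (0.62 ± 0.14) and Rora (0.61 ± 0.13). 5830411N06Rik lost its call in members with no Trac UMI (0.93, adjusted p = 0.35). Cxcr6 lost its call in DESeq2 (adjusted p = 0.054), without diabetic day 5 (0.12), in members with no Trac UMI (0.54) and with the cells split after thinning (0.27). Il1r1 lost its call without each of the 4 libraries in turn (adjusted p = 0.060 to 0.31). Maf, Ccr2, Blk and Il7r lost theirs without diabetic day 5 (0.084 to 0.16), and Blk and Rora without control day 7 (0.064 and 0.11). Il1r1, Maf, Blk and Rora were not called with the cells split after thinning, nor were Il1r1 and Blk in DESeq2. In members with no Trac UMI none of the 8 was called. Il23r (0.75 ± 0.25, adjusted p = 0.11) did not pass the test, at 222 UMIs in the cells with cytokine and 78 in those without.

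Of 11 tested costimulation genes, 3 were higher and 0 lower, against 1.48% of all genes. Icos, a costimulatory receptor, was 0.90 ± 0.12 higher with cytokine (adjusted p = 8.6e-06), Il2ra 0.85 ± 0.13 and Cd44 0.43 ± 0.12 higher. Cd163l1 did not differ beyond its error (0.13 ± 0.18, adjusted p = 0.87), and Trdv4 was 0.81 ± 0.23 lower (adjusted p = 0.044). Icos kept its call in every alternative run. Cd44 lost its call without each of the 4 libraries in turn (adjusted p = 0.067 to 0.29), and Trdv4 without diabetic day 3 (0.33), diabetic day 5 (0.086) or control day 7 (0.20), and both in DESeq2. Il2ra and Cd44 were not called with the cells split after thinning. The largest rises were in Pde4a, a cAMP phosphodiesterase (2.11 ± 0.49), Itga3, an integrin of laminin (1.86 ± 0.44), Lpcat1, a phospholipid enzyme (1.65 ± 0.38), Ehbp1l1 (1.34 ± 0.36), Atp2a2, the SERCA2 calcium pump (1.24 ± 0.27), Hlf, a transcription factor (1.23 ± 0.21), Sla (1.15 ± 0.24) and Gpr65, a proton-sensing receptor (1.11 ± 0.24). Igkc, an immunoglobulin chain of B cells, was also higher (1.74 ± 0.40). Bcl2a1d, which protects from cell death, was 1.04 ± 0.19 higher. Several of these rises depended on the setting. With the cells split after thinning, Lpcat1 was 0.23 (adjusted p = 0.93), Sla 0.16 (0.88) and Gpr65 0.52 (0.31), and Pde4a, Itga3, Igkc and Ehbp1l1 also lost their calls. DESeq2 did not call Pde4a, Itga3, Lpcat1, Ehbp1l1, Hlf or Gpr65. Without diabetic day 5 the calls of Pde4a, Igkc, Lpcat1, Ehbp1l1 and Sla were lost, without control day 7 those of Pde4a, Itga3, Ehbp1l1 and Gpr65, and without diabetic day 7 that of Ehbp1l1. When libraries with at least 10 cells of each kind were used, Pde4a, Itga3, Igkc, Ehbp1l1, Gpr65 and Atp2a2 (0.69, adjusted p = 0.31) were not called. At 5 receptor UMIs or more, Itga3, Ehbp1l1 and Atp2a2 (1.03, adjusted p = 0.065) were not. In members with no Trac UMI, where 2 libraries remained, 1 gene in all was called higher.

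The genes with the largest falls with cytokine were carried by a minority of the members without it. Trat1, a T cell receptor adaptor, had 0 UMIs in members with cytokine and 50 in 19 members without, at least 27.8-fold lower against a floor of 3 counts over the group. Adgrl2, a latrophilin, had 0 and 34 UMIs, at least 18.9-fold lower. Fermt2 had 4 UMIs against 135 (log2 fold change -5.51 ± 0.50). Counting ratios of members without to members with cytokine were 50.8 (13.5 to 429) for Atp1b1, 46.6 (12.3 to 395) for Unc5b, 38.9 (12.8 to 193) for Avil and 27.8 (8.97 to 139) for Nrgn, each from 2 or 3 UMIs in the cells with cytokine, and the call of Nrgn was lost without diabetic day 5 (adjusted p = 0.14). In members with no Trac UMI the calls of Trat1 (adjusted p = 0.089), Avil (0.061) and Sema6d (0.093) were lost. Nkg7, a cytotoxic granule protein, was -4.48 ± 0.35, Spry2, a signalling inhibitor, -4.38 ± 0.57 and Sema6d -4.20 ± 0.68. Xcl1, a chemokine of epidermal γδ T cells (-3.98 ± 0.52), and the receptor Klrd1 (-2.85 ± 0.49) were lower too. Of 6 tested genes of epidermal γδ T cells, Gzmc and Xcl1 were lower and 0 higher, against 1.74% of all genes called lower. The heat shock genes Hspa1a (-1.81 ± 0.32), Hspa1b (-1.88 ± 0.31), Hsp90aa1 and Hsp90ab1 were lower, 4 of 12 on that list against the same 1.74%. The calls of all 4 heat shock genes and of Klrd1 (adjusted p = 0.066) were lost without diabetic day 5, and those of the 4 heat shock genes in DESeq2. Hsp90aa1 and Hsp90ab1 also lost theirs without diabetic day 7, and Hsp90aa1 without diabetic day 3. Hsp90aa1 and Hsp90ab1 were not called after thinning (adjusted p = 0.14 and 0.15) or with no filter on low counts (0.28 and 0.29). Nor were they with at least 10 cells per library (0.15 and 0.17). At 5 receptor UMIs or more Hspa1a (0.061), Hspa1b (0.15) and Hsp90ab1 (0.093) lost their calls. In members with no Trac UMI all but Hspa1b did. Gzmc was not called in DESeq2 or with the cells split after thinning (adjusted p = 0.13). Nor was it with at least 10 cells per library (0.10) or in members with no Trac UMI (0.051). Leaving out diabetic day 5, which gave the most cells, left 15 genes higher and 29 lower. Without diabetic day 7 the counts were 30 and 48, and without control day 7 they were 32 and 42. DESeq2 called 20 and 33, and splitting the cells after thinning to 1000 UMIs left 23 and 29.

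The spread of this minority is described by 8 genes. They were chosen after their values were seen, from those lower in members with cytokine. At least 2 of Fermt2, Xcl1, Nkg7, Trat1, Avil, Unc5b, Adgrl2 and Gzmc were found in 70 members (13.4%), and 2 of those 70 carried Il17a or Il17f. At least 1 of the genes was found in 134 members (25.7%), and 38 of those 134 (28.4%) carried either cytokine. These low shares partly follow from the choice of the genes and were not tested. Members with at least 2 of the genes were 29.4%, 17.7%, 8.09% and 4.17% in diabetic libraries of days 1, 3, 5 and 7, and 26.1%, 11.4%, 52.0% and 8.99% in control libraries. Within each group the lowest of these shares was on day 7, and control day 5, with 13 of 25 members, stood above the rest. At the cut of at least 1 gene the shares were 38.2%, 27.4%, 23.7% and 25.0% in diabetic libraries. In control libraries they were 30.4%, 22.7%, 56.0% and 15.7%. The lowest was then day 5 in diabetic and day 7 in control libraries. By scavenger receptor, 57 of the 70 lay among the 104 members with neither gene. That link partly follows from the choice of the 8 genes in cells without cytokine and was not tested.

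**Figure D4:**
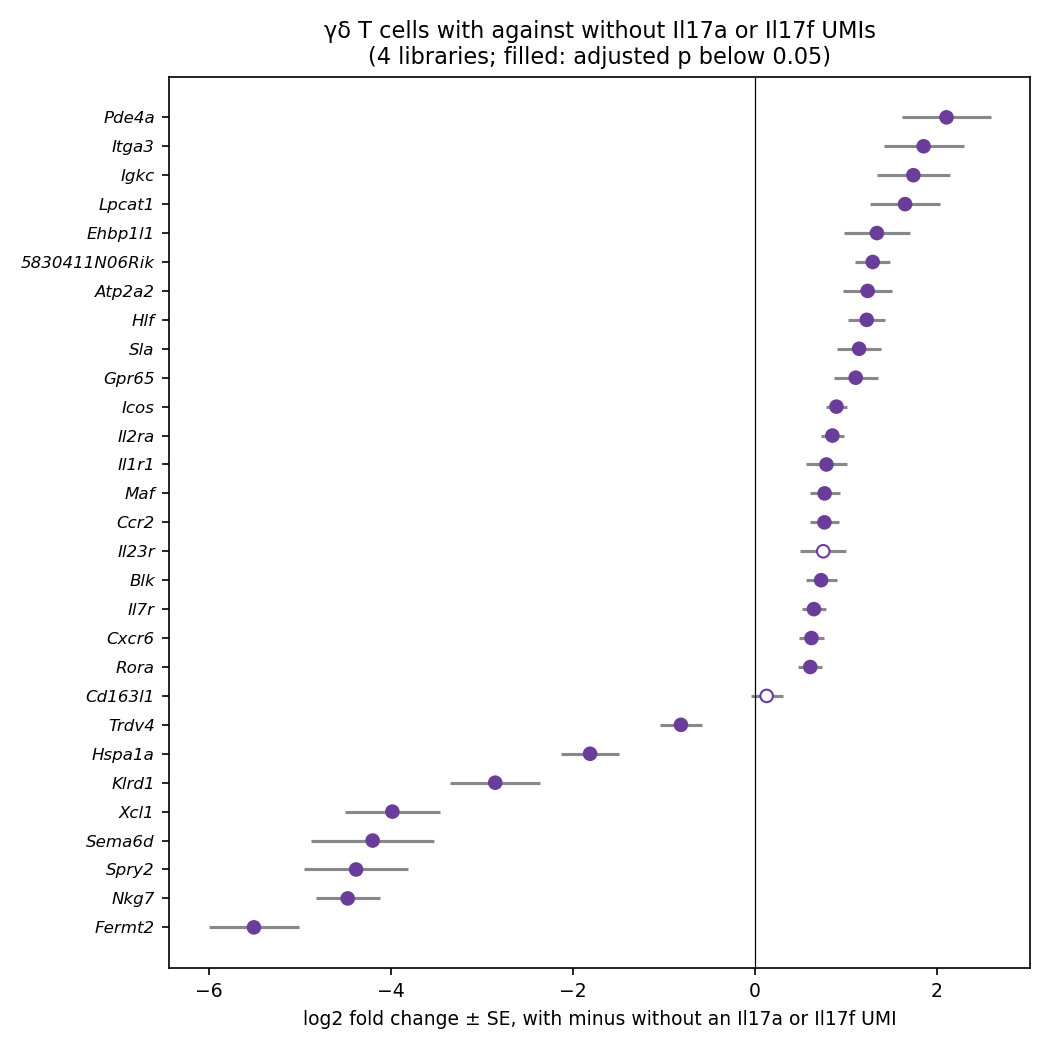
Log2 fold change with its standard error between γδ T cells with and without an Il17a or Il17f UMI, 4 libraries, for genes named in the text with more than 3 UMIs in the cells with cytokine. Filled points passed an adjusted p of 0.05; receptor and costimulatory genes such as Icos (0.90) lie to the right and Fermt2 (-5.51) and Nkg7 (-4.48) to the left.

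The effect of diabetes on these cells was tested over the 4 day pairs. No IL-17 lineage gene passed the test over all genes, and the single gene that did, Chil3, is a myeloid gene. The share of members with an Il17a or Il17f UMI was 38.2%, 51.6%, 60.7% and 70.8% in diabetic libraries of days 1, 3, 5 and 7, and 65.2%, 31.8%, 32.0% and 64.0% in control libraries. The diabetic share was lower on day 1 by 27.0 points and higher on days 3, 5 and 7 by 19.8, 28.7 and 6.79 points, a mean of 7.07 (SD 24.4, exact two-sided sign-flip permutation p = 0.625). In members thinned to 1000 UMIs the differences were -27.1, 25.7, 10.8 and 6.65 points. The ratio of diabetic to control Il17a was 0.470 on day 1 (counting interval 0.309 to 0.709), 1.90 on day 3 (1.42 to 2.56), 3.60 on day 5 (2.31 to 5.94) and 1.41 on day 7 (1.21 to 1.65). For Il17f the ratio was 1.06, 30.2, 1.09 and 1.31, with day 3 resting on 7 control UMIs. These intervals cover counting error within 1 pair of libraries, and neither the spread between cells nor the mice. On day 1 a single member held 23 of the 42 diabetic Il17a UMIs, and another held 21 of the 60 control UMIs.

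In the edgeR quasi-likelihood test with day as a block, 1 of 4554 genes (0.022%) differed between diabetic and control members, 213 had an unadjusted p below 0.05, and DESeq2 called 0. None of 22 tested IL-17 lineage genes passed, with 19 of 22 above zero and a median of 0.28 against 0.01 over all genes. The neutrophil list had a larger median, 0.73, with 6 of 7 tested genes above zero and 0 passing. Il17a was 0.55 ± 0.34 (adjusted p = 0.99), Il17f 0.97 ± 0.49 (adjusted p = 0.99), Cxcr6 0.71 ± 0.25 (adjusted p = 0.98, higher in 4 of 4 pairs), Il7r 0.80 ± 0.25 (adjusted p = 0.98, higher in 4 of 4 pairs), Il23r 0.76 ± 0.31 (adjusted p = 0.98) and Cd163l1 0.26 ± 0.44 (adjusted p = 0.99). Among members with at least 5 receptor UMIs, control days 1 and 5 fell under 20 cells and 6 libraries remained. With day as a block, the group difference then rested on days 3 and 7 alone. In that fit Il17f passed the test at 1.96 (adjusted p = 0.000115), and control day 3 held 7 Il17f UMIs over all its members. In its other alternatives the adjusted p of Il17f ranged from 0.064 to 0.9995, and without control day 3 its value was 0.26. Of 16 tested cytokines and growth factors 0 passed, with 12 above zero. The heat shock and cell cycle lists also held 0 calls, with medians of -0.30 and -0.28.

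Chil3, a chitinase-like protein of macrophages and neutrophils, was the single call, 2.89 ± 0.45 higher in diabetic members (adjusted p = 0.036). It was at 582, 163, 8.88 and 38.3 CPM in diabetic members on days 1, 3, 5 and 7, and at 64.7, 23.7, 0 and 6.16 in control members. The diabetic value was higher on 4 of 4 days, from 67, 41, 7 and 10 UMIs against 5, 4, 0 and 2, and on day 1 a single member held 34 of the 67. Over all kept cells Chil3 was also higher in diabetic libraries on 4 of 4 days, at 1516, 1031, 109.9 and 195 in diabetic and 818, 134, 21.8 and 41.5 in control libraries. The 10 neutrophil marker genes, all detected, summed to 1173 to 9319 CPM in diabetic members and 226 to 5605 in control members. The part of RNA from other cells in the Chil3 difference was not tested. The call was lost without the day 1 library of either group (adjusted p = 0.90 and 0.92), without control day 7 (adjusted p = 0.060) and in DESeq2 (adjusted p = 0.077), with values between 2.69 and 2.99 in these fits. With day as a block, leaving out either day 1 library removes the same day 1 difference, so those losses are not separate checks.

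Over days 1 to 7, with group as a term, 7 of 3954 genes (0.177%) had a trend in members in edgeR's quasi-likelihood test, 2 rising and 5 falling. The rising genes were Icos and the fatty acid receptor Cd36. Icos was at 1052, 1774, 2825 and 3154 CPM in diabetic members and 1217, 807, 1757 and 3722 in control members. It rose by 0.29 ± 0.05 per day on the log2 scale (adjusted p = 0.043), and the slopes within the groups were 0.27 and 0.30. Cd36, which macrophages carry, had 116 UMIs in all and rose by 0.74 ± 0.14 per day. In cells with at least 3 Csf1r UMIs it stood at 177 to 942 CPM, and in αβ T cells at 10.6 to 218. The 12 macrophage and monocyte markers summed to 3173, 3465, 1351 and 4322 CPM in diabetic members and 932, 1958, 4676 and 7711 in control members, and the 8 dendritic cell markers to 861, 5243, 3566 and 7039 in diabetic and 1230, 2634, 2734 and 4891 in control members. Both sums were higher on day 7 than on day 1 in each group, and apart from a fit without cells holding myeloid genes their part in the Icos and Cd36 trends was not tested. Il17a (0.15 ± 0.08 per day, adjusted p = 0.78) and Il17f (0.03 ± 0.11, adjusted p = 0.99) did not pass, and neither did any of 20 tested IL-17 lineage genes. In the 5 libraries that remained without cells holding 1 of 5 myeloid genes, Il17a passed at 0.29 per day (adjusted p = 0.013), and Cxcr6 passed at 0.23 with no filter on low counts (adjusted p = 0.034).

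The 5 falling genes were myeloid or stress genes. Retnlg, a neutrophil product, went from 1408 to 42.2 CPM between days 1 and 7 in diabetic members and from 557 to 9.23 in control members (-1.07 ± 0.12 per day, adjusted p = 0.0012). On diabetic day 1 a single member held 130 of the 162 UMIs. Chil3 (-0.80 ± 0.14), Lcn2, a neutrophil granule protein (-0.58 ± 0.10), Gadd45a, a stress gene (-0.48 ± 0.08), and Clec4e, a myeloid lectin (-0.33 ± 0.06), also fell. In neutrophils themselves Retnlg was at 577 to 9764. Among all kept cells the summed neutrophil markers went from 31166 to 4278 in diabetic and from 26982 to 4020 in control libraries. With cells left out that held a UMI of Csf1r, C1qa, Adgre1, Csf3r or Cxcr2, which kept 5 libraries, the slopes were -0.54 for Retnlg (adjusted p = 0.19), -0.53 for Chil3 (0.55), -0.27 for Lcn2 (0.74), -0.23 for Gadd45a (0.75) and -0.18 for Clec4e (0.41), smaller than with all members and no longer called. In the same fit Icos kept its call and Cd36 lost it (0.79, adjusted p = 0.50). Each of the 7 trends lost its call without diabetic day 1 (adjusted p = 0.057 for Retnlg and 0.13 to 0.70 for the others). All but Retnlg also lost it without control day 1, and Icos, Cd36, Chil3, Lcn2 and Gadd45a without control day 7. Icos, Cd36, Lcn2 and Clec4e lost it without diabetic day 7, and Icos and Lcn2 without diabetic day 5. Without the group term the calls of Icos (adjusted p = 0.072), Cd36 (0.063), Chil3, Lcn2 and Clec4e (0.072 each) were lost, and at 5 receptor UMIs or more those of Cd36 (0.14), Gadd45a (0.24), Chil3, Lcn2 and Clec4e (0.077 each).

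**Figure D5:**
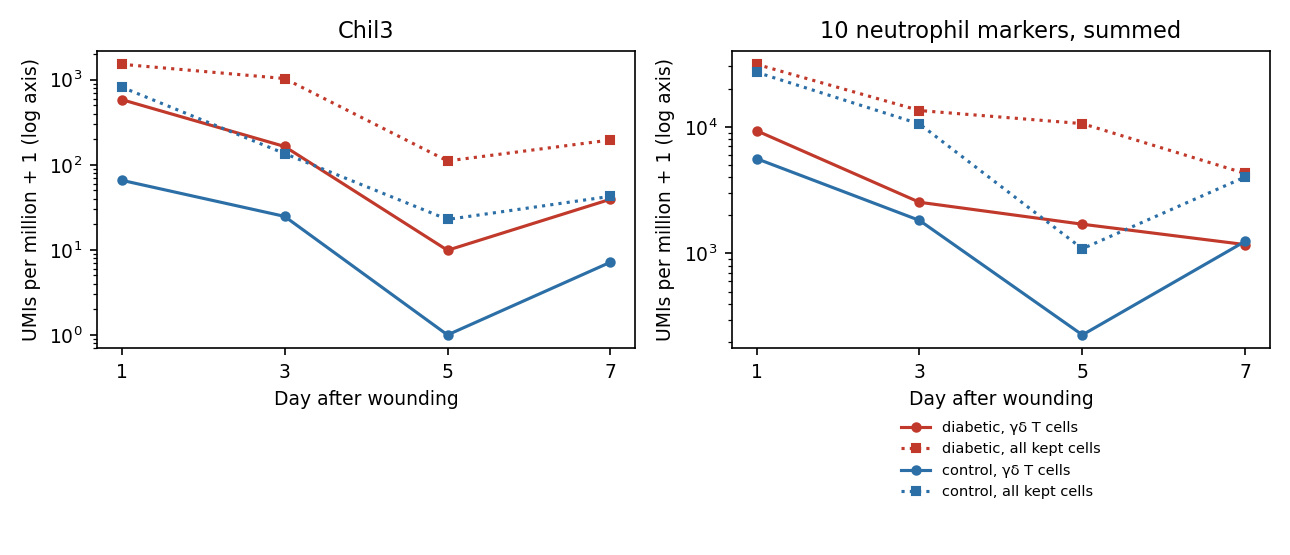
Chil3 (left) and the summed level of 10 neutrophil marker genes (right) by day, in CPM plus 1 on a log axis, for γδ T cells (solid lines, circles) and all kept cells (dotted lines, squares) of diabetic and control libraries. Both measures were highest on day 1 in the γδ T cells and in all kept cells, and the lowest γδ values were in control day 5.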

How the data were processed

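The deposited tables hold UMI counts per gene and cell, which the authors made from droplet or microwell reads (the study's methods name BD Rhapsody, the series record 10X Genomics) with fastp 0.20.1 per the labels, UMI-tools and STAR, before any cell filter. The methods give an Ensembl release of the mouse genome and the labels mm9. No coordinate was taken from the tables, and 98.2% of symbols matched GENCODE vM21 (GRCm38). Libraries held 19236522 to 33842509 UMIs and 4059 to 5836 barcodes, members 77256 to 788017 UMIs. Cell names had been renumbered, so barcodes shared between libraries could not be counted.

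From these counts, members were summed per library (at least 20 cells) and tested with edgeR 4.0.16 (TMM, filterByExpr, quasi-likelihood, Benjamini-Hochberg), on R 4.3.3. DESeq2 1.42.0 and other settings served as alternatives. CPM values scale the summed UMIs of a class and library to a fixed total. Shares have exact binomial intervals, and cells were thinned without replacement to 1000 UMIs. Fits were tested on simulated data. Promoters came from RefSeq (GRCm38.p6). In each comparison the 10 largest rises and falls at an adjusted p below 0.05, with the same sign in every library or day pair (10 CPM added before logs), were named, besides genes of the lists. Members, lists and tests were chosen with earlier results of these data known. Some genes are not reported here. Samples differ as pools. The edgeR and DESeq2 p-values rest on the spread between sums that is left after the block or group term. The sign-flip p-values rest on the 4 day pairs. Neither kind measures the spread between mice.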

Additional observations from a re-analysis of the deposited data

Results flagged for a closer look

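The share of γδ T cells with an Il17a or Il17f UMI went in opposite directions between days. Diabetic minus control was -27.0 percentage points on day 1, 19.8 on day 3, 28.7 on day 5 and 6.79 on day 7. With 1 library per group and day, this difference between days was not tested. The day 1 values rest on 13 of 34 and 15 of 23 members.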

How the results depend on the processing

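The comparisons between classes of cells were blocked by library and that between diabetic and control members by day. The day trend had group as a term. The replicate number, 1 for every library, adds no further pairing. Against αβ T cells, 528 genes higher and 352 lower became 227 and 135 when cells with a UMI of Csf1r, C1qa, Adgre1, Csf3r or Cxcr2 were left out (4 libraries remained), and 339 and 188 without the library block. Leaving out 1 library gave 368 to 506 higher and 271 to 389 lower, and for 64 genes of the text 917 of 960 checks kept their direction and call, 39 lost it, 3 gained it and 1 reversed, Mcpt4 at 0.12 (adjusted p = 0.89) against αβ T cells with at least 5 receptor UMIs. The 39 losses fell on 17 genes, 9 of them without the cells holding the 5 myeloid genes (Ccr2, Lta, Tnf, Klrk1, Ccr7, Ifit1, H2-Eb1, Bhlhe40 and Gata3) and 5 without the library block (Maf, Tnf, Gzma, H2-Eb1 and Bhlhe40). For diabetic against control members (1 higher, 0 lower) the counts were 0 and 0 in DESeq2 and without the day block, 2 and 1 with no filter, 6 and 5 at 5 receptor UMIs, 4 and 1 in members with no Trac UMI (chosen after seeing the data, as in the other comparisons), and 2 and 22 on days 5 and 7 alone. With day as a block, a library without its partner of the same day adds nothing to the group difference. The fit at 5 receptor UMIs thus rested on days 3 and 7. Without 1 library the counts ranged from 0 to 6 and from 0 to 7. For the day trend (2 higher, 5 lower) they were 12 and 15 in DESeq2, 35 and 34 with no filter, 2 and 1 at 5 receptor UMIs, 15 and 12 without cells holding the 5 myeloid genes, 15 and 20 with no Trac UMI, and 0 and 2 without the group term. Without 1 library they ranged from 0 to 15 and from 0 to 21. For cells with against without cytokine (56 higher, 66 lower) they were 20 and 33 in DESeq2, 92 and 77 with no filter, 23 and 29 after thinning, and 1 and 9 in members with no Trac UMI, where 2 libraries remained. Without 1 library they ranged from 15 to 63 and from 29 to 64. Of the checks of single genes of the text, 119 of 394 in this comparison (31 of 41 genes in at least 1), 40 of 165 in the day trend and 4 of 103 in the diabetic comparison lost the call, and 0 reversed. Calls were gained by Il17f in the diabetic comparison, by Il17a and Cxcr6 in the day trend, and against αβ T cells by Il22 and, in 2 settings, Il7r. The diabetic and cytokine comparisons could not be fitted without cells holding the 5 myeloid genes, since too few libraries kept 20 cells. The mean difference in the share of members was 0.351 to 1.23 points over kept cells under the cell-level settings, 0.160 to 1.26 without 1 day and 4.98 points over T cells. Unless a smaller number of cells or libraries is named, the cause was not tested. Depth limits low genes such as Csf2, with 56 UMIs in all members.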

Other observations

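In control day 3, 1 of 44 members held 165 of the 190 Gzma UMIs and 143 UMIs of Ccl5 (of 183) were in a single member. The 8 natural killer cell markers summed to 1400.3 CPM in that library's members and to 11.9 to 142 in the other 7, and Ncr1 was at 0 in every one. Igkc, higher in members with cytokine, varied between libraries from 0 to 268 CPM in members, from 0 to 306 in αβ T cells and from 0 to 227 in neutrophils, with control day 7 highest in each.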
